A study of Mus musculus with 12 samples.

Results

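Horizontal cells were followed through 7 genes that mark them in the mouse retina, Lhx1, Onecut1, Onecut2, Calb1, Prox1, Gja10 and Tfap2b. The genes were taken by symbol from a table of 35976 genes of which 24484 had at least 1 read. Reads were found for 6 of the 7 markers, and Gja10 had none in any library. The table holds 12 retinal libraries from mice, with 3 libraries in each of 4 groups. Per the labels, the groups are C57BL/6 (WT) pups in normoxia, C57BL/6 pups after oxygen-induced retinopathy (OIR), caspase-1 knockout (Casp1 KO) pups in normoxia and Casp1 KO pups after OIR. In OIR, pups are kept in high oxygen, which stops the growth of retinal vessels, and the poorly perfused retina becomes hypoxic once the pups are back in room air. The WT pups of the OIR group spent P7 to P12 in 75% oxygen and were collected at P15, while the WT normoxia pups were of the same age and were kept at 21% oxygen, and the labels give 3 days of hypoxia for both OIR groups. The age and oxygen level of the Casp1 KO pups, the knockout allele and the number of animals in a library are not given in the sources used here. Nothing in those sources says that libraries of a group came from separate animals, so the spread between these libraries may be technical. The p-values rest on that spread pooled over the genes fitted, and not on the spread of each marker alone.

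Horizontal cells are the lateral interneurons of the outer retina. Their processes end inside the synaptic terminals of rods and cones, and through them each photoreceptor receives inhibitory feedback that depends on the light falling around it. The mouse has a single kind, coupled into a sheet by gap junctions, and its cells are few beside the photoreceptors. Onecut1, Onecut2, Prox1 and Tfap2b are transcription factors used when horizontal cells are made, Lhx1 is a LIM homeodomain factor that places their cell bodies in the right layer, Calb1 (calbindin) buffers calcium in the mature cell, and Gja10 encodes the connexin of their dendritic gap junctions. Few of these genes belong to horizontal cells alone. Prox1 is also made by bipolar cells, AII amacrine cells and Muller glia, Tfap2b and Calb1 by amacrine cells, and the Onecut genes by retinal ganglion cells. Whole retina was sequenced, so fewer cells of a type and less RNA per cell cannot be told apart in any value given here.

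Library totals ran from 3391203 to 5657873 reads, apart from WT normoxia replicate 2 with 22815830. WT OIR replicate 3 stood apart from its group: its counts differed from those of the other replicates by a chi-square of 14.03 and 13.2 per degree of freedom, where all other replicate pairs gave 3.48 to 9.34. The Casp1 counts went against the genotype labels. The libraries labelled WT held 2, 0 and 1 Casp1 reads in normoxia and 0, 1 and 3 in OIR, while those labelled Casp1 KO held 45, 14 and 10 in normoxia and 22, 19 and 16 in OIR. Which part of the gene is deleted is not stated. Whether 3' reads lie outside it, and whether the genotype labels were exchanged, was not tested. For this reason genotypes are given below as labels, and every direction between them is a direction between the libraries so labelled.

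All 7 genes are protein coding in the GENCODE vM21 annotation of GRCm38, the assembly that mm10 also names. Lhx1 spans bases 84518284 to 84525535 of chromosome 11 (minus strand), Onecut1 bases 74861921 to 74891781 of chromosome 9 (plus strand) and Onecut2 bases 64340020 to 64400987 of chromosome 18 (plus strand). Calb1 and Gja10 share chromosome 4, from 15881264 to 15908064 on the plus strand and from 32596960 to 32602760 on the minus strand. Prox1 and Tfap2b share chromosome 1, from 190118035 to 190170714 on the minus strand and from 19208914 to 19238576 on the plus strand. The transcript Gm20649 overlaps the 3' end of Onecut1 on the same strand. Prox1os and Gm28172 overlap Prox1 on the opposite strand, and neither reaches the 3' end of Prox1. The strand setting of the counting is not given in the sources used here, so the counts of Onecut1 and Prox1 may hold or miss reads of these neighbours.

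The libraries were made from the 3' ends of polyadenylated RNA, so reads do not grow with transcript length, and levels are given as counts per 1e6 reads (CPM) with TMM library sizes. The markers covered a wide range of levels. Tfap2b was the most abundant, with a median of 255.6 CPM over the 12 libraries and a range of 201 to 302, followed by Prox1 with a median of 230.7 and a range of 159 to 290. These neighbours overlapped, and Tfap2b exceeded Prox1 in 9 of the 12 libraries. Calb1 came next with a median of 69.3 CPM and a range of 41.4 to 113, and Onecut2 had a median of 28.2 and a range of 18.01 to 39.4. Lhx1 had a median of 10.9 CPM and a range of 5.52 to 16.9, and Onecut1 a median of 8.21 and a range of 5.63 to 13.3. Lhx1 exceeded Onecut1 in only 7 of 12 libraries, so their order does not exceed their spread, while the steps from Prox1 to Calb1, from Calb1 to Onecut2 and from Onecut2 to Lhx1 held in all 12 libraries.

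**Figure D1:**
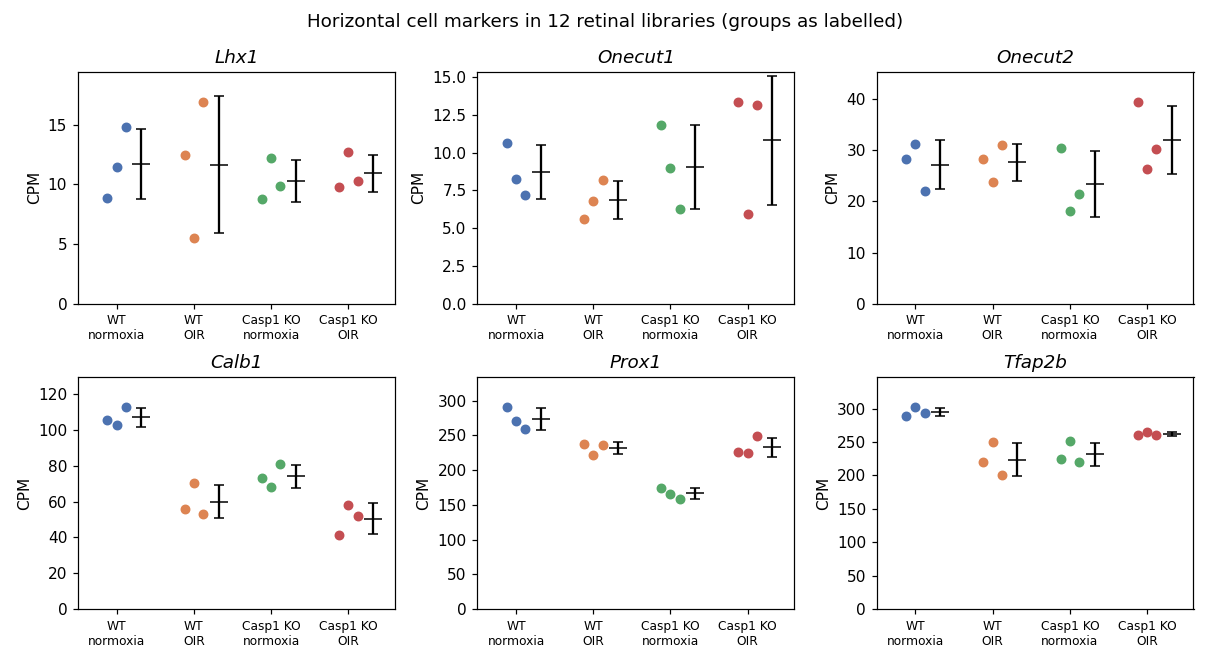
Levels (CPM) of 6 horizontal cell markers, 1 panel per gene, with 1 point per library (3 per group, left to right replicates 1 to 3) and the group mean with its SD in black. Calb1 was lower in OIR than in normoxia under both genotype labels, Prox1 and Tfap2b were highest in WT normoxia, and the points of Lhx1, Onecut1 and Onecut2 overlap between all groups.

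Gja10, the connexin gene, had 0 reads among 75020742 in the 12 libraries together, which allows a level of up to 0.040 CPM, counting error only. In single libraries the same limit of 3 reads runs from 0.134 to 0.871 CPM. The longest 3' UTR annotated for Gja10 is 224 bases with the stop codon, against 1268 to 14359 bases for the other 6 genes, and the part of this in the missing reads was not tested. No fold change can be given for Gja10.

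Calb1 was the marker with the clearest change in OIR. In the libraries labelled WT its level was 105.5, 103 and 113 CPM in normoxia and 55.8, 70.3 and 53.2 in OIR. In those labelled Casp1 KO it was 73.3, 68.3 and 81.1 CPM in normoxia and 41.4, 58.3 and 52.0 in OIR. Under either label every OIR library lay below every normoxia library. Under the WT label the mean fell from 107 ± 5.08 to 59.8 ± 9.21 CPM (SD, n = 3 each), a log2 fold change of -0.85 (SE 0.158, 95% interval -1.16 to -0.54, edgeR adjusted p = 1.237e-05) or 0.556-fold. With the Casp1 KO label the mean fell from 74.2 ± 6.49 to 50.5 ± 8.55 CPM, a log2 fold change of -0.54 (SE 0.147, 95% interval -0.83 to -0.25, edgeR adjusted p = 0.008818) or 0.687-fold. The fall under the WT label passed the threshold with each library left out in turn, WT OIR replicate 3 and the deep WT normoxia replicate 2 included. The fall under the Casp1 KO label missed it without Casp1 KO normoxia replicate 3 (adjusted p = 0.1164) or without Casp1 KO OIR replicate 1 (adjusted p = 0.1396).

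A model of OIR over all 12 libraries, with the genotype label as a covariate, does not depend on which genotype label is right. In it Calb1 changed by -0.70 (SE 0.113, edgeR adjusted p = 9.515e-08), and 1 of the 6 markers with reads was called lower and 0 higher, where 2.57% of all genes tested were called lower and 2.32% higher. By the interaction term the fall of Calb1 did not differ detectably between the labels, with a difference of 0.28 on the log2 scale (95% interval -0.14 to 0.70, edgeR adjusted p = 0.7574).

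Prox1 and Tfap2b, the most abundant of the 7, moved with OIR in a way that depended on the genotype label. Prox1 was at 290.2, 270.1 and 259 CPM in WT normoxia, 238, 222 and 236 in WT OIR, 175, 166 and 159 in Casp1 KO normoxia and 226, 224 and 249 in Casp1 KO OIR. The Casp1 KO normoxia libraries were the lowest and the WT normoxia libraries the highest, and the OIR libraries of both labels lay in between and overlapped each other. Prox1 rose under the Casp1 KO label from 166 ± 8.03 to 233 ± 13.7 CPM, by 0.50 on the log2 scale (SE 0.0953, edgeR adjusted p = 1.732e-05) or 1.41-fold. Under the WT label the means were 273 ± 15.7 CPM in normoxia and 232 ± 8.50 in OIR, which did not overlap, but the log2 fold change of -0.25 (SE 0.129, 95% interval -0.50 to 0.01) had an edgeR adjusted p of 0.4154.

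Tfap2b was at 289, 302 and 293 CPM in WT normoxia, 220.4, 249 and 201 in WT OIR, 224, 251 and 219 in Casp1 KO normoxia, and 260.1, 265 and 261 in Casp1 KO OIR. As for Prox1, all WT normoxia libraries lay above all others. For Tfap2b the Casp1 KO OIR libraries lay above those of WT OIR and Casp1 KO normoxia, while for Prox1 they overlapped those of WT OIR. Under the WT label Tfap2b fell from 295 ± 6.40 to 224 ± 24.2 CPM, by -0.41 on the log2 scale (SE 0.129, edgeR adjusted p = 0.04148) or 0.753-fold. This call was lost without any 1 of the 3 WT normoxia libraries or without WT OIR replicate 1, with adjusted p-values of 0.1445, 0.2146, 0.179 and 0.08925, and it held without WT OIR replicate 3 (adjusted p = 0.03536). It was also lost with DESeq2 size factors (adjusted p = 0.05545) and with filterByExpr (adjusted p = 0.0649). Under the Casp1 KO label the means were 231 ± 17.1 CPM in normoxia and 262 ± 2.42 in OIR, a log2 fold change of 0.19 (SE 0.0904, edgeR adjusted p = 0.2968) with groups that did not overlap.

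The interaction term tests whether the change with OIR differs between the labels, over all 12 libraries. It was 0.72 for Prox1 (SE 0.162, 95% interval 0.40 to 1.04, edgeR adjusted p = 0.002314) and 0.58 for Tfap2b (SE 0.159, 95% interval 0.27 to 0.89, edgeR adjusted p = 0.03038). A positive value means that OIR against normoxia was higher under the Casp1 KO label than under the WT label. The 2 markers called higher were among 6 tested, and 0 were called lower, where 0.604% of all genes were called higher and 0.527% lower. The fitted interaction was above 0 for all 6, with a median of 0.50. The median was -0.04 over all genes tested and 0.014 over those with a mean of at least 10 reads per library. That of Lhx1 was 0.10, with a 95% interval of -0.85 to 1.05. In the lists of other cell types given below, 9 of 9 bipolar, 10 of 12 amacrine and 7 of 8 Muller glia genes were fitted above 0. Of the ganglion cell genes 4 of 11 were. The value of Prox1 passed the threshold without any 1 library, with a range of 0.68 to 0.78. That of Tfap2b ranged from 0.51 to 0.66 and lost its call without any of 7 libraries, which were WT normoxia replicates 1 and 2, Casp1 KO normoxia replicates 1 and 3 and the 3 Casp1 KO OIR libraries, with adjusted p-values from 0.05078 to 0.1343.

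**Figure D2:**
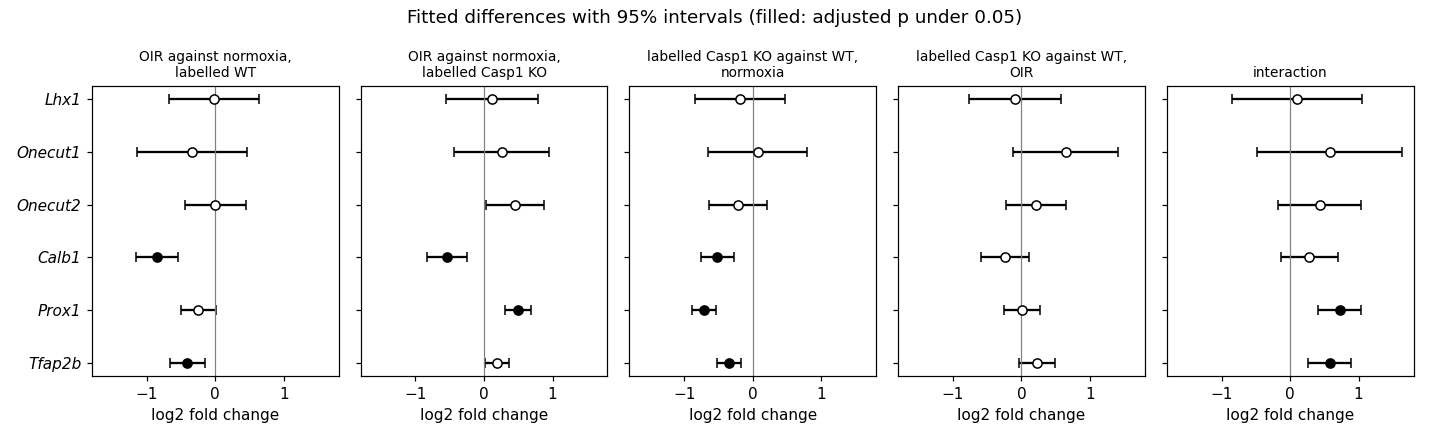
Fitted log2 fold changes of 6 markers with 95% intervals in 4 comparisons of groups and in the interaction, filled where the edgeR adjusted p is under 0.05. The intervals of Calb1 lie below 0 in OIR under both labels, those of Prox1 lie above 0 in OIR under the Casp1 KO label and below 0 between labels in normoxia, and those of Lhx1 and Onecut1 reach across 0 throughout.

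Because Prox1 and Tfap2b shared this pattern, their promoters are shown as RefSeq gives them for GRCm38.p6, from 250 bases before to 50 bases after the start of transcription, 5' to 3'. The Prox1 window is chr1:190170778-190171077 on the minus strand, the upstream one of 2 starts listed, and the Tfap2b window is chr1:19211804-19212103 on the plus strand. Capitals mark matches, on either strand, to ATTGAT (a core of Onecut sites), TAATTA (a core of LIM homeodomain sites) or GCCNNNGGC (an AP-2 site, the kind that Tfap2b binds).
Prox1: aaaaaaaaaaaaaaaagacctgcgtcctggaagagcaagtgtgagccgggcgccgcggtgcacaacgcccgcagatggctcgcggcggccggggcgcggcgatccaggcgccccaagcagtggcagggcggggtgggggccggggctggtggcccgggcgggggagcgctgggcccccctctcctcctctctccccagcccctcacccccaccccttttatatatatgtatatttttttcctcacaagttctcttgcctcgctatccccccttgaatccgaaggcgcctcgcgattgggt
Tfap2b: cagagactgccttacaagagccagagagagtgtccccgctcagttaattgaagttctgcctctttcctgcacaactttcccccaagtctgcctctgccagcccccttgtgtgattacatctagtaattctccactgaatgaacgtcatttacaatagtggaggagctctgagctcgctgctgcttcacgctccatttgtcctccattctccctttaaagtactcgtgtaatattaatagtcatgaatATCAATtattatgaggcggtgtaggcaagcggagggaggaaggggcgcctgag
Tfap2b held 1 match, to the reverse complement ATCAAT of the first of these motifs, and Prox1 held 0 matches. Of 32851 RefSeq promoters of this length, 7.54% hold ATTGAT, 5.29% hold TAATTA and 16.6% hold GCCNNNGGC on either strand. The Prox1 window was 64.3% G and C and that of Tfap2b 48.3%. Promoters were listed for 5 of the 7 markers, and those of Lhx1, Onecut1 and Gja10 and the other Prox1 start also held 0 of these matches.

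The 3 factors Lhx1, Onecut1 and Onecut2 showed no detectable change in any comparison. Lhx1 was at 8.88, 11.5 and 14.8 CPM in WT normoxia, 12.5, 5.52 and 16.9 in WT OIR, 8.75, 12.2 and 9.90 in Casp1 KO normoxia and 9.78, 12.7 and 10.3 in Casp1 KO OIR. All groups of Lhx1 overlapped, and WT OIR held both its highest and its lowest library. Its change with OIR was -0.01 under the WT label (95% interval -0.67 to 0.64, edgeR adjusted p = 0.9887) and 0.11 under the Casp1 KO label (95% interval -0.56 to 0.78, edgeR adjusted p = 0.9118). The WT value turned to 0.0019 with DESeq2 size factors.

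Onecut1 was at 10.7, 8.23 and 7.18 CPM in WT normoxia, 5.63, 6.81 and 8.18 in WT OIR, 11.9, 9.01 and 6.28 in Casp1 KO normoxia and 13.3, 5.91 and 13.2 in Casp1 KO OIR. The groups overlapped, and Casp1 KO OIR replicate 2 lay far below the other replicates of its group. The log2 fold change with OIR was -0.34 under the WT label (95% interval -1.14 to 0.46, edgeR adjusted p = 0.7383) and 0.26 under the Casp1 KO label (95% interval -0.43 to 0.95, edgeR adjusted p = 0.7471). With 23 to 65 reads per library apart from the 185 of WT normoxia replicate 2, a fall of Onecut1 as large as that of Calb1 lies inside the WT interval.

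Onecut2 was at 28.2, 31.2 and 21.96 CPM in WT normoxia, 28.2, 23.8 and 30.9 in WT OIR, 30.4, 18.01 and 21.5 in Casp1 KO normoxia and 39.4, 26.3 and 30.2 in Casp1 KO OIR. The highest Casp1 KO normoxia library reached into the range of the Casp1 KO OIR libraries. Its change with OIR was 0.001 under the WT label (95% interval -0.45 to 0.45, edgeR adjusted p = 0.9984), an interval that does not reach the fall of Calb1. Under the Casp1 KO label it was 0.45 (95% interval 0.03 to 0.87, unadjusted p = 0.03464 in edgeR's quasi-likelihood test), and after adjustment over all genes p was 0.3031.

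Counted over the markers, OIR under the WT label gave 2 of 6 called lower (Calb1 and Tfap2b) and 0 higher, where 2.29% of all genes tested were called lower and 1.58% higher. For 3 of the 6 all OIR libraries lay below all normoxia libraries, where 16.7% of all genes tested had groups that did not overlap, higher and lower counted together. With the Casp1 KO label, 1 marker was called higher (Prox1) and 1 lower (Calb1), where 2.61% of all genes were called higher and 2.03% lower. There Calb1 was lower and Prox1 and Tfap2b were higher without overlap, where 17.1% of all genes did not overlap. The median log2 fold change of the 6 markers was -0.29 under the WT label, against 0.04 over all genes, and 0.22 under the Casp1 KO label, against -0.002. Over genes with a mean of at least 10 reads per library, the medians were -0.008 under the WT label and 0.014 under the Casp1 KO label.

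In normoxia, 3 markers were lower in the libraries labelled Casp1 KO than in those labelled WT. Prox1 differed by -0.71 (SE 0.0911, 95% interval -0.89 to -0.53, edgeR adjusted p = 1.056e-11) or 0.611-fold, and this held without any 1 library. Calb1 differed by -0.52 (SE 0.123, edgeR adjusted p = 0.004766) or 0.698-fold and Tfap2b by -0.35 (SE 0.0861, edgeR adjusted p = 0.009627) or 0.787-fold. The groups of these 3 genes did not overlap, where 12.4% of all genes did not overlap, and 0.56% of all genes were called lower and 0.476% higher. The call of Calb1 was lost without WT normoxia replicate 3 (adjusted p = 0.05458) or Casp1 KO normoxia replicate 2 (adjusted p = 0.07885), and that of Tfap2b without Casp1 KO normoxia replicate 1 (adjusted p = 0.07516) or 3 (adjusted p = 0.1737). With all 12 libraries in 1 fit, Prox1 alone kept its call, with adjusted p-values of 0.07413 for Calb1 and 0.1856 for Tfap2b. Onecut2, Lhx1 and Onecut1 differed by -0.21, -0.19 and 0.07, with edgeR adjusted p-values from 0.7513 to 0.9689.

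In OIR, 0 markers were called between the labels by edgeR, 0 had an unadjusted p under 0.05, and DESeq2 also called 0, where 0.263% of all genes were called higher and 0.312% lower. Prox1 differed by 0.01 (95% interval -0.25 to 0.27) and Calb1 by -0.24 (95% interval -0.59 to 0.11). Tfap2b was the 1 marker whose groups did not overlap, higher under the Casp1 KO label by 0.23 (95% interval -0.03 to 0.49, edgeR adjusted p = 0.6766), where 11.9% of all genes did not overlap. Onecut1 had the largest fitted difference, 0.64, with a 95% interval of -0.12 to 1.40. These comparisons share libraries with the comparisons of OIR with normoxia, so their values are not separate evidence.

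**Figure D3:**
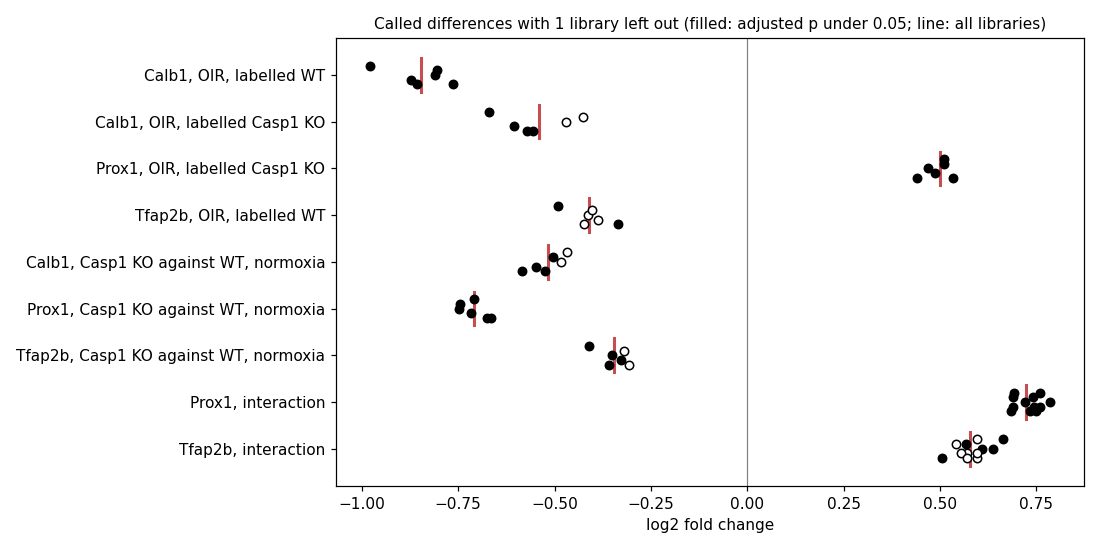
Each called difference of Calb1, Prox1 and Tfap2b between 2 groups or in the interaction, refitted with 1 library left out. There is 1 point per left-out library, filled where the edgeR adjusted p stayed under 0.05, with a red line at the value from all libraries on the log2 scale. The change of Calb1 with OIR over both labels is not shown. No value crosses 0, all points of Prox1 are filled, and Tfap2b loses its call for 4 of 6 libraries in OIR under the WT label and for 7 of 12 in the interaction.

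A second list held 11 other genes of horizontal cells and their precursors, among them Onecut3, Tfap2a, Sall3, Foxn4, Ptf1a, Sept4, Slc32a1, Megf10, Megf11 and Pax6. Foxn4 and Ptf1a act in the progenitors that give rise to horizontal and amacrine cells, and Ptf1a had 0 reads while Foxn4 had 6 reads in Casp1 KO OIR replicate 2 only. Of the 9 tested under the WT label, 3 fell in OIR and 0 rose, where 2.29% of all genes tested were called lower and 1.58% higher. The median of the 9 was -0.57, against 0.04 over all genes and -0.008 over those with a mean of at least 10 reads per library. The 3 that fell were Slc32a1, the vesicular transporter of GABA and glycine (-0.82, edgeR adjusted p = 0.000755), Pax6, a factor shared with amacrine and ganglion cells (-0.64, edgeR adjusted p = 0.000767), and Sept4, a septin (-0.55, edgeR adjusted p = 0.006704). Sept4 went from 152.7 ± 15.1 to 105.4 ± 13.9 CPM, Pax6 from 147 ± 16.8 to 94.8 ± 11.7 and Slc32a1 from 62.1 ± 2.15 to 35.3 ± 5.80.

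In OIR under the Casp1 KO label edgeR called 0 of the 10 tested, 1 had an unadjusted p under 0.05, and the median of the 9 with over 3 reads in some library of each group was -0.02. Sept4 was at 117.7 ± 6.96 and 128.6 ± 12.7 CPM there, and Pax6 at 132.7 ± 7.50 and 129.3 ± 6.71. The interaction of Sept4 was 0.66 (SE 0.183, edgeR adjusted p = 0.03092), and those of Tfap2a, an AP-2 factor related to Tfap2b, Slc32a1 and Pax6 were 0.88, 0.64 and 0.59 with edgeR adjusted p-values of 0.1964, 0.2906 and 0.08204. In normoxia Sept4 was lower under the Casp1 KO label by -0.37 (edgeR adjusted p = 0.04548), the 1 gene called of 9 tested, where 0.56% of all genes were called lower. Between the labels in OIR 0 of 10 were called and 1 had an unadjusted edgeR p under 0.05. Over both labels Slc32a1 (-0.49, edgeR adjusted p = 0.007657) and Pax6 (-0.34, edgeR adjusted p = 0.01807) were called lower in OIR.

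Further genes of this list were low or were not called. Sall3, a zinc finger factor that horizontal cells need, had group means of 11.7 to 12.7 CPM and a log2 fold change of -0.02 with OIR under each label. Onecut3 had group means of 2.24 to 4.07 CPM and Megf10 of 3.28 to 4.81. Megf10 and Megf11 are surface proteins that space horizontal cells apart, and Megf11 went from 32.4 ± 7.07 to 22.01 ± 2.24 CPM under the WT label (log2 fold change -0.57, edgeR adjusted p = 0.1876).

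Lists of other retinal cell types that share markers with horizontal cells moved as well, and their part in the values above was not tested. Beside their counts, 2.29% of all genes were called lower and 1.58% higher in OIR under the WT label. Under the Casp1 KO label these shares were 2.03% and 2.61%. Between labels in normoxia 0.56% were called lower and 0.476% higher, and in the interaction 0.527% lower and 0.604% higher. Of 12 amacrine genes, 7 fell and 0 rose in OIR under the WT label, with a median of -0.83, and their summed level went from 1103 to 1188 CPM in normoxia to 612 to 674 in OIR. Calb2 (calretinin), Gad1 and Gad2, which make GABA, had the smallest p, with log2 fold changes of -0.97, -0.89 and -0.98. Under the Casp1 KO label 1 amacrine gene fell (Calb2, -1.12), 6 of the 12 were fitted higher and 6 lower, and the median was -0.04. The sum went from 1054 to 1141 CPM to 685 to 711 there, and most of that difference was Calb2, with means of 724 ± 48.6 CPM in normoxia and 329.5 ± 25.7 in OIR. In the interaction 4 of 12 amacrine genes were called higher, with Gad2 at 1.16, Gad1 at 0.77 and C1ql2 at 0.98.

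Muller glia and bipolar cells, both sources of Prox1, gave the following values beside it. Of 8 Muller glia genes, 3 fell and 1 rose in OIR under the WT label and 6 rose and 0 fell under the Casp1 KO label, and their summed level went from 2211 to 2391 CPM to 1773 to 1789.9 under the WT label and from 1605 to 1757 CPM to 2324 to 2408 under the Casp1 KO label. In normoxia 4 of the 8 were lower under the Casp1 KO label, and 3 had a called interaction, led by Glul (1.09), Rlbp1 (0.99) and Dkk3 (0.76). Of 9 bipolar genes, 2 fell in OIR under the WT label (among them Gng13, -1.22), 0 were called by edgeR under the Casp1 KO label, with 1 at an unadjusted p under 0.05, and 3 were lower under the Casp1 KO label in normoxia (among them Trpm1 and Prkca). The summed bipolar level was 963 to 1041 CPM in WT normoxia, 861 to 957 in WT OIR, 778 to 824 in Casp1 KO normoxia and 879.0 to 879.8 in Casp1 KO OIR.

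Ganglion cell genes, a list near the Onecut genes, fell under both labels, with 7 of 11 called lower under each. Their summed levels were 3084 to 3322 CPM in WT normoxia, 1485 to 1845 in WT OIR, 3394 to 3653 in Casp1 KO normoxia and 1796 to 1876 in Casp1 KO OIR. The median was -0.60 under the WT label and -0.90 under the Casp1 KO label, and 0 of 11 were called in the interaction. Over the 10 with over 3 reads in some library of each group, these medians were -0.61 and -0.87. Calb1 also fell under both labels, and the part of ganglion cells in its fall was not tested. Onecut1 and Onecut2 themselves were not called, as given above. Rod genes, which summed to 37679 to 45144 CPM in the 12 libraries, had 1 of 8 called higher under the WT label and 3 higher and 1 lower under the Casp1 KO label, and cone genes 1 of 8 lower under the first and 2 higher and 1 lower under the second. Of the lists for cells beyond the neural retina, microglia (2 and 3 of 8), endothelial cells (1 and 0 of 7), pigment epithelium (1 and 3 of 6), lens (0 of 5 and 3 of 6) and red blood cells (4 and 0 of 5) had these numbers called higher in OIR under the WT and Casp1 KO labels. Apart from 1 pigment epithelium gene under the WT label, 0 genes of these 5 lists were called lower in either comparison.

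**Figure D4:**
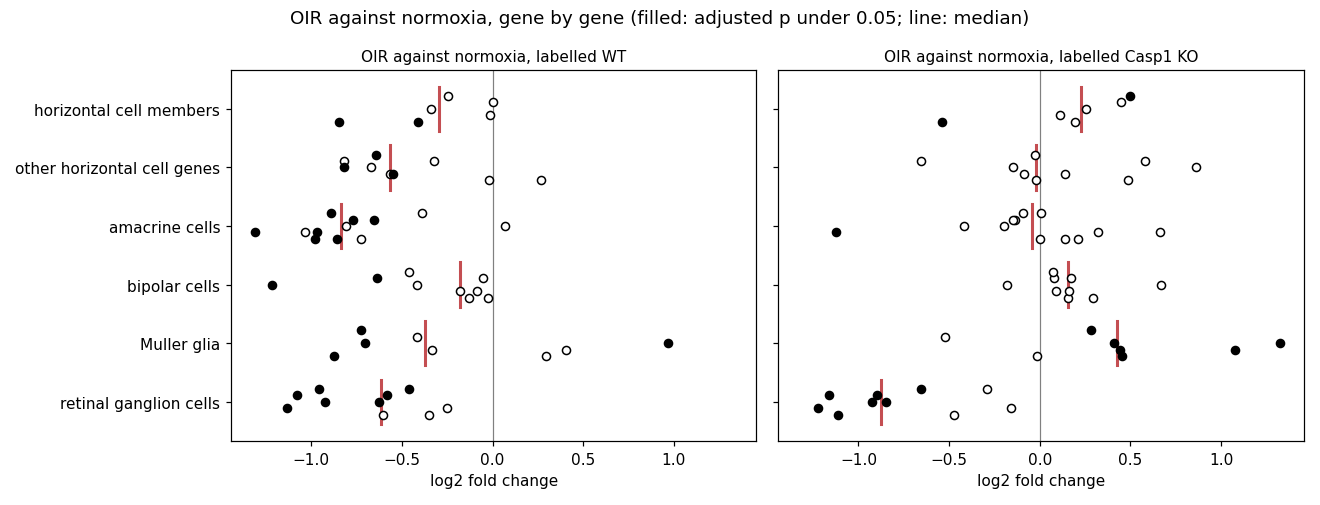
Log2 fold change of each gene with OIR under the WT label (left) and the Casp1 KO label (right) for the 6 markers with reads, the other horizontal cell genes and 4 other cell types, leaving out genes with 3 reads or fewer in every library of a group, with the median as a red line. The medians of the horizontal, amacrine, bipolar and Muller glia lists lie below 0 on the left and between -0.04 and 0.43 on the right, while that of ganglion cells lies below 0 on both sides.

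The likeness of genes over the 12 libraries is given as a description, since the libraries share groups and depth. Among 11038 genes with at least 10 reads in every library, the gene most like Calb1 in log2 CPM was Kcna2, a potassium channel subunit (Pearson r = 0.961). The gene most like Prox1 was Egr1, an immediate early factor (r = 0.897), and the gene most like Tfap2b was Guca1b, a guanylate cyclase activator of photoreceptors (r = 0.918). For Lhx1 it was Cabp5, a calcium-binding protein of bipolar cells (r = 0.885), for Onecut1 1500009L16Rik (r = 0.843) and for Onecut2 Cdan1 (r = 0.934). The Spearman rho was 0.685 for Lhx1 with Cabp5 and 0.853 to 0.958 for the other pairs. Each of these genes was picked as the highest of 11038. Between the markers the highest values were 0.565 for Prox1 with Tfap2b, 0.513 for Calb1 with Tfap2b and 0.511 for Onecut1 with Onecut2. With the group means removed these became -0.286, 0.322 and 0.603, and the highest value was then 0.629 for Onecut1 with Prox1. The positive value of Prox1 with Tfap2b thus came from the group means, and 3 libraries per group are few to judge it within groups. Nor did the 2 genes move together between all groups. From Casp1 KO normoxia to WT OIR the mean went from 166 to 232 CPM for Prox1 and from 231 to 224 for Tfap2b. For no marker was another marker the most similar gene, and the closest rank was 381, that of Onecut2 for Onecut1.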

How the data were processed

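Lexogen QuantSeq 3' FWD libraries were made from total RNA of 12 retinal samples. Per the labels and the processing notes of the submitters, the authors aligned reads to mm10 with STAR 2.7.5a and counted them per gene with HTSeq 0.6.1. The deposited table holds these counts as whole numbers, without normalization, for 35976 gene symbols. Annotation, strand setting and treatment of multiply mapping reads are not given in the sources used here. No molecular identifiers are described, so limits cover counting error only.

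Counts were fitted in R 4.3.3 with edgeR 4.0.16 (TMM, quasi-likelihood test, genes with 1 or more counts in the fit, Benjamini-Hochberg adjustment over all genes tested, threshold 0.05, prior count 0.125). Comparisons of 2 groups used their own 6 libraries. The interaction and the additive model used all 12. Intervals are 95% from the standard error and the t distribution with the degrees of freedom of the fit. For the markers these were so large that the intervals were in effect normal, because the spread was pooled over genes. In OIR under the WT label the edgeR adjusted p of Calb1 was 1.237e-05, and 0.003036 with filterByExpr. Between labels in normoxia that of Prox1 was 1.056e-11, and 7.202e-07 with filterByExpr. No single fold change is given for a gene with 3 reads or fewer in every library of a group. With any read in the libraries fitted, such a gene still entered the counts and medians of lists unless stated otherwise. The procedure was tested on simulated data first. Alternatives were DESeq2 size factors, the DESeq2 1.42.0 test, filterByExpr, a block for replicate number, a single fit to all 12 libraries, and leaving out each library in turn.

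The 7 markers, the genes of a second horizontal cell list, and for other lists at most 3 genes with the smallest p were named, with Casp1 in every library and the gene most like each marker. Single values of 2 genes that this rule picks are not reported here. Members and lists were chosen with earlier results of these data known. Lists are described by counts and medians, without a test. Promoters came from a RefSeq table and positions from GENCODE vM21.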

Additional observations from a re-analysis of the deposited data

Results flagged for a closer look

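The change of Prox1 with OIR differed between the genotype labels, by 0.72 on the log2 scale (edgeR interaction term, SE 0.162, adjusted p = 0.002314). Under the Casp1 KO label 3 of 3 OIR libraries lay above all normoxia libraries, where 17.1% of all genes tested did not overlap, higher and lower counted together. Under the WT label 3 of 3 lay below them, where 16.7% did not overlap, again counting both directions. That fall of Prox1 under the WT label was not called (edgeR adjusted p = 0.4154). The change of Tfap2b differed in the same direction, by 0.58 (SE 0.159, edgeR adjusted p = 0.03038), but lost its call for 7 of 12 left-out libraries. Its groups did not overlap under either label. Its rise under the Casp1 KO label was not called (edgeR adjusted p = 0.2968). The fall of Tfap2b under the WT label was called (edgeR adjusted p = 0.04148) but lost its call for 4 of 6 left-out libraries. Casp1 reads went against the genotype labels in these libraries, so the direction belongs to the libraries so labelled. Genes of other cell types moved with the same groups, with 4 of 12 amacrine, 3 of 8 Muller glia and 1 of 9 bipolar genes called higher in the interaction. Of all genes tested 0.604% were called higher there. The part of these cell types in the differences of Prox1 and Tfap2b was not tested.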

How the results depend on the processing

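Of 456 marker values under alternatives, 407 kept their direction and their side of the threshold, 22 lost a call, 0 gained one and 27 changed sign, of which 0 had been called. DESeq2 size factors moved the median of all genes by at most 0.02 on the log2 scale. Under the WT label the count of markers called in OIR went from 2 to 1 with DESeq2 size factors, with filterByExpr and with the replicate block, and to between 1 and 2 with a library left out, while all genes called went from 886 to 586 with filterByExpr and to between 545 and 1130 with a library left out. Under the Casp1 KO label the markers called were 1 to 2 with a library left out, and all genes called went from 1038 to 642 with all 12 libraries in 1 fit. Between labels in normoxia that fit left 1 of 3 markers and 109 of 233 genes, the DESeq2 test called 444 genes, and leaving out a library gave 128 to 199. Between labels in OIR the count of 131 genes became 82 with the DESeq2 test, 16 with filterByExpr and 255 with all 12 libraries in 1 fit, and 47 to 815 with a library left out, the highest without WT OIR replicate 3. For the interaction, 277 genes became 139 with filterByExpr and 174 to 597 with a library left out, the highest again without WT OIR replicate 3, with 1 to 2 markers called. The cause was not tested.

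Signs changed in values near 0. Lhx1 in OIR under the WT label became 0.0019 with DESeq2 size factors and 0.00021 with the DESeq2 test, and between labels in OIR it became 0.0064 with the replicate block. With a library left out, Lhx1 ranged from -0.40 to 0.33 in OIR under the WT label, from -0.028 to 0.24 under the Casp1 KO label, from -0.12 to 0.21 over both, from -0.43 to 0.31 between labels in OIR and from -0.24 to 0.49 in the interaction. Onecut1 ranged from -0.18 to 0.28 between labels in normoxia and from -0.16 to 0.067 with OIR over both labels, Onecut2 from -0.12 to 0.13 in OIR under the WT label, and Prox1 from -0.042 to 0.040 between labels in OIR.

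The labels give all groups the same replicate numbers. No pairing by number was seen, with correlations of deviations from -0.03 to 0.03 between libraries of the same number. Whether such libraries shared a litter or a batch was not tested. With the replicate block, Tfap2b under the WT label had an adjusted p of 0.07062, and the block changed no other call of a marker. Depth limits Lhx1 and Onecut1 most, with as few as 30 and 23 reads in a library.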
